A study of Mus musculus with 6 samples.

Results

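The nuclear receptors are a family of transcription factors, and 46 of their genes were followed by name in the deposited gene table of 37924 genes. All 46 were found, each in 1 row. A mean of at least 0.5 FPKM over the 6 libraries was reached by 38 of them, and these entered the test; the other 8 are given by their values. FPKM counts fragments per kilobase of transcript, scaled to the mapped fragments of the library. It is a share within a library, and its sum ran from 555157.4 in cKO 1 to 625866.5 in control 2. Comparisons between libraries therefore depend on the scaling. The members were taken by family name, with no measured value in the rule, but they and the gene lists used below were chosen with earlier results of these data known.

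The 6 RNA sequencing libraries were made from whole mouse ovaries at postnatal day 14, on a mixed C57BL/6J/129S7/SvEvBrd background. The 3 control libraries came from mice that carry a floxed allele on both chromosomes and no Cre. The 3 conditional knockout libraries, called cKO here, came from mice with the same floxed alleles and Gdf9iCre+, in which the promoter of the oocyte gene Gdf9 drives the Cre recombinase. Both groups were homozygous for the floxed allele, so they differed by the Cre transgene, and a group with Cre and no floxed allele was not analysed here. For each library, RNA of 3 mice was pooled, with 1 ovary taken per animal. Cre acts in the oocyte, while a whole ovary also holds granulosa, theca, stromal and vascular cells, so a lower value can stand for fewer cells of a type or for less RNA per cell, and these cannot be told apart.

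A nuclear receptor has a DNA-binding domain with zinc fingers and, in most members, a pocket for a small lipid-soluble ligand such as a steroid, a retinoid, thyroid hormone or a fatty acid. The bound receptor exchanges corepressors for coactivators and changes the transcription of its target genes. In the ovary the family is known for NR5A receptors that drive steroid enzyme genes, for estrogen receptor beta in granulosa cells, and for receptors of progesterone and retinoids. The comparison asks how the transcripts of the family differ when the floxed gene is deleted in oocytes.

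From the smallest values, 0.5 FPKM in a gene of 2 kb was estimated to stand for 19.6 fragments in the shallowest library and 24.9 in the deepest. All markers of oocytes, granulosa cells and theca cells that were listed had values above 0 in every library. Control 3 differed from control 1 and control 2 in 2 respects that touch members. Its summed FPKM of 8 adipose tissue markers was 40.5, while control 1 and control 2 had 14.7 and 15.3 and cKO 16.2 to 17.3. Several immediate early genes were lower in control 3 than in control 1 and control 2, at values near those of cKO.

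In cKO ovaries 2 of the 38 tested nuclear receptor genes fell and none rose. Pparg, the receptor for fatty acids that is known as the regulator of fat cells and is also made in granulosa cells, fell to 0.345 times its control mean. Esr2, estrogen receptor beta of granulosa cells, fell to 0.603 times its control mean. The other 36 did not pass an adjusted p of 0.05. The called share of the members was 5.26%, beside 4.33% of all 14934 genes tested, so the family as a whole was called about as often as any genes. Split by direction, 2.09% of all tested genes fell and 2.24% rose.

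Below that threshold the members also resembled the background. An unadjusted p below 0.05 was reached by 11 members, 6 higher and 5 lower in cKO, which is 28.9% beside 24.3% of all tested genes. The groups did not overlap for 11 members, 28.9% beside 30% of all tested genes. Of these 11, 7 were higher and 4 lower in cKO, beside 18% and 12% of all tested genes; for the unadjusted p these background shares were 14.5% and 9.8%. The log2 change was positive for 25 of 38 members, 65.8% beside 58.5% of all tested genes, and its median was 0.09 for the members and 0.05 for all tested genes. The split between rising and falling genes in the whole table shifts with the scaling. Called genes were 51.7% higher as deposited, 39.1% after quantile normalisation and 30.6% with the libraries centred on their median, and 25, 19 and 21 members were then positive.

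**Figure D1:**
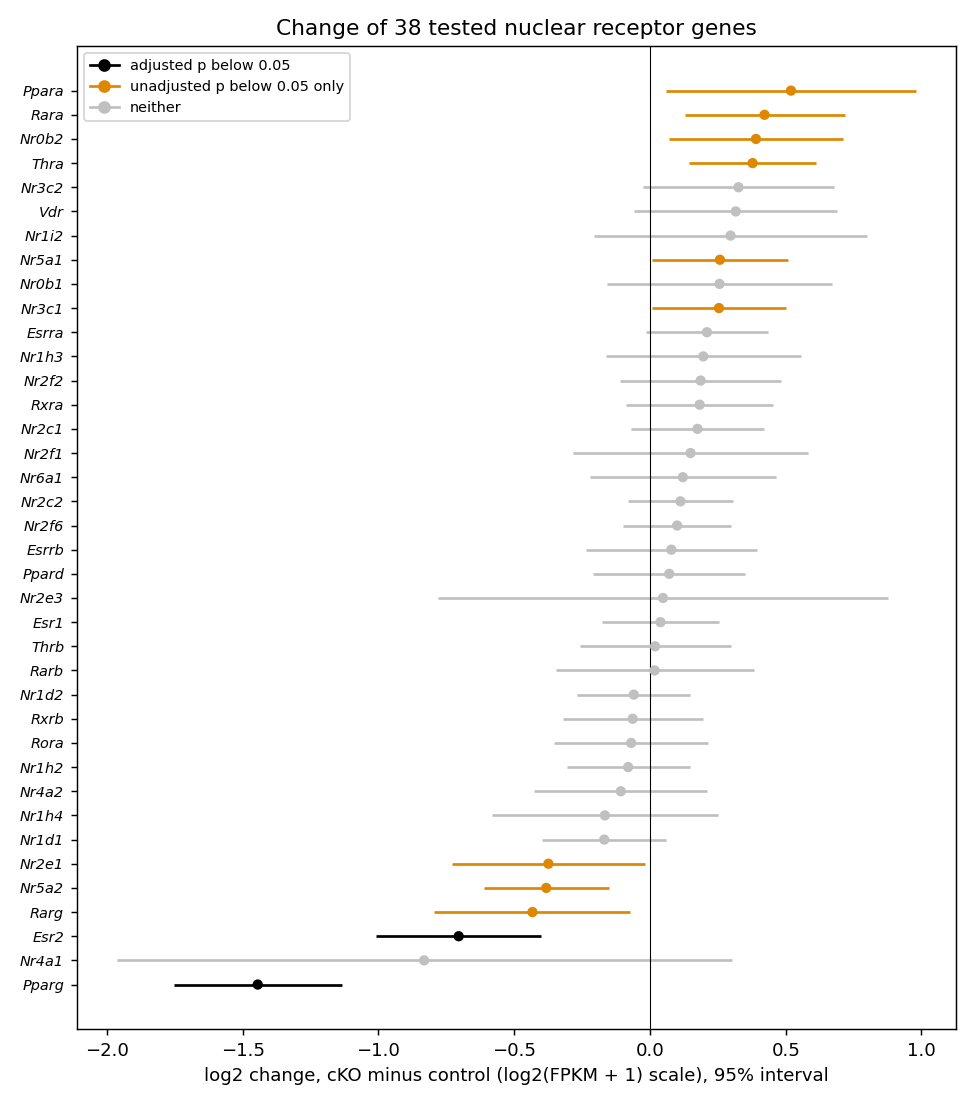
Log2 change of the 38 tested nuclear receptor genes (x axis, cKO minus control on the log2(FPKM + 1) scale) with 95% intervals, ordered by size on the y axis. The 2 black points, Pparg and Esr2, passed the adjusted test, and the 9 orange points passed only the unadjusted one.

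The levels spanned a wide range. A mean of at least 20 FPKM was reached by 8 members, 15 lay from 5 to 20 FPKM, 15 from 0.5 to 5 FPKM, and 8 below 0.5 FPKM. Nr5a2 was highest at a mean of 95.1 FPKM, followed by Thra at 92.8, Nr5a1 at 67.9, Esr2 at 51.7 and Nr2f2 at 44.4 FPKM. Nr5a2 and Thra changed places between the groups, since Nr5a2 was the higher of the pair in each control and Thra in each cKO library. The 5 highest members made up 53.7% to 55.1% of the summed FPKM of the family in control and 53.9% to 56.9% in cKO.

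**Figure D2:**
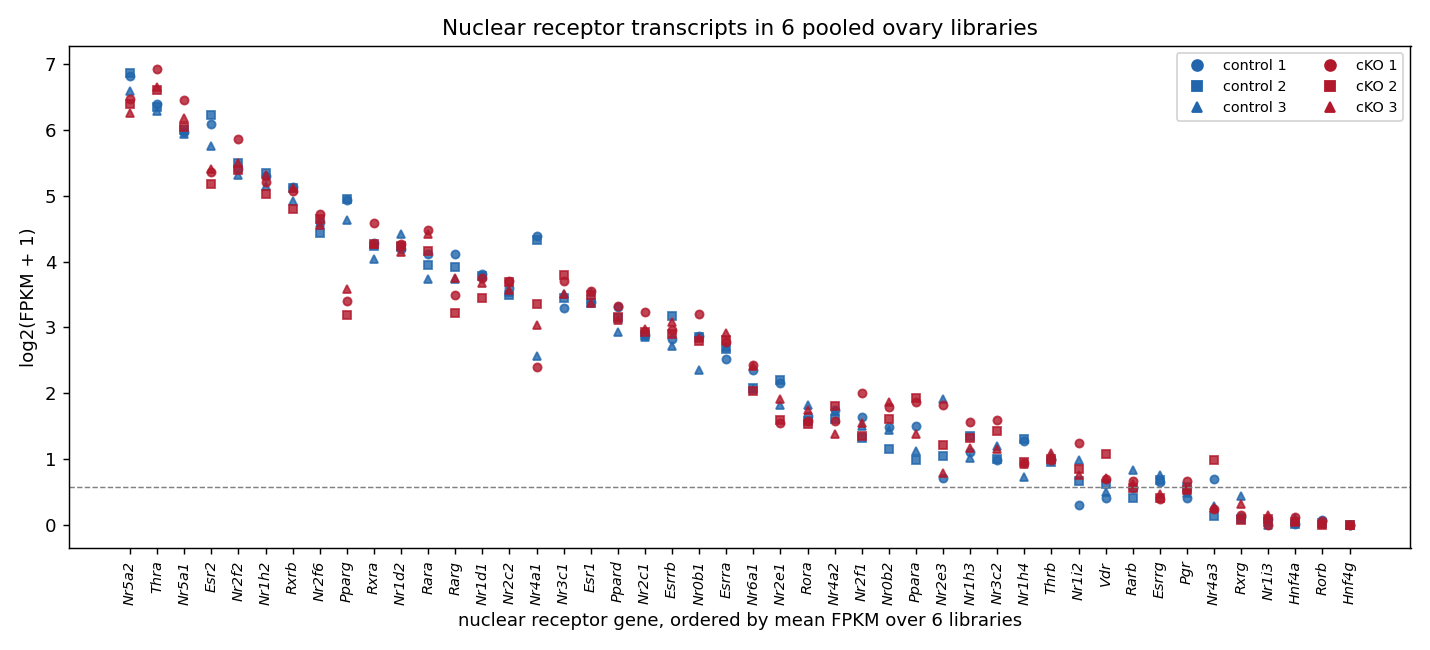
Level of each of the 46 nuclear receptor genes in the 6 libraries (y axis, log2(FPKM + 1); x axis, genes ordered by mean FPKM; blue control, red cKO; the dashed line marks 0.5 FPKM). The groups stand well apart at Esr2 and Pparg, while Hnf4g is listed at 0 in every library.

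Pparg (ENSMUSG00000000440, chr6:115360951-115490399, plus strand, mm10) read 29.6, 29.8 and 23.7 FPKM in control 1 to 3 and 9.59, 8.09 and 11.01 FPKM in cKO 1 to 3. Every cKO library lay below every control, and control 3 was the lowest control. The means were 27.7 ± 3.46 and 9.56 ± 1.46 FPKM (SD, n = 3), with a log2 change of -1.44 (SE 0.13, adjusted p 0.00918, limma). Its unadjusted p of 7.09e-06 was the 11th smallest of all genes tested. The call was lost, at adjusted p-values of 0.0615, 0.0544 and 0.0723 (limma), without control 1, control 2 or cKO 1. In these fits only 5, 2 and 2 of all genes tested were called, against 646 with all libraries, so the loss was not particular to Pparg. The log2 change stayed between -1.55 and -1.34 over all fits with 1 library left out.

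Adipose tissue markers were measured beside Pparg. Of 5 tested, Plin1, which coats lipid droplets, rose, from 6.18, 6.79 and 4.95 FPKM to 13.9, 10.6 and 11.8 FPKM. None fell, and the median log2 change was -0.59. Cfd and Fabp4, named after their values were seen, were lower in every cKO library without passing the test: Fabp4, a fatty acid carrier, read 5.98, 5.37 and 15.2 FPKM in control 1 to 3 and 2.43, 3.81 and 2.54 FPKM in cKO 1 to 3, and Cfd, an adipokine, read 1.74, 2.31 and 13.98 FPKM in control and 0.561 to 1.16 FPKM in cKO. Adipoq, the adipokine that defines fat cells, read 0.273, 0.491 and 2.67 FPKM in control and 0.113 to 0.354 FPKM in cKO, and Lep and Ucp1 were at 0 in some libraries. Fabp4, Cfd and Adipoq were highest in control 3, and Plin1 was lowest there. Without control 3 the log2 change of Pparg was -1.55. The part of adipose tissue in the values of Pparg was not tested.

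Esr2 (ENSMUSG00000021055, chr12:76120419-76177259, minus strand, mm10) read 67.2, 73.5 and 52.9 FPKM in control 1 to 3 and 40.3, 35.2 and 41.3 FPKM in cKO 1 to 3. The groups did not overlap, and control 3 was again the control nearest to cKO. The means were 64.5 ± 10.6 and 38.9 ± 3.25 FPKM (SD, n = 3), with a log2 change of -0.70 (SE 0.13, adjusted p 0.0348, limma). This call was less stable than that of Pparg: it was lost when any 1 library other than control 3 was left out, at adjusted p-values of 0.0619 to 0.156 (limma). The change then ranged from -0.75 to -0.61. Calls were also fewer over all genes in these fits, at 2 to 385 against 646 with all libraries. Without control 3 the log2 change was -0.84 at an adjusted p of 0.0125 (limma). Leaving out the control nearest to cKO widens the gap by itself, so this fit adds no support to the call.

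Pparg and Esr2 share granulosa cells as a known site of expression, and the markers of these cells were mixed. Of 11 tested granulosa markers 5 fell and none rose, 7 had a negative and 4 a positive log2 change, the median was -0.66, and none was at 0 in any library. Their summed FPKM was 3341 to 4285 in control and 2136 to 2571 in cKO. Most of this sum came from Inha, at means of 2017 and 1265 FPKM, and Gja1, at 793 and 387 FPKM. It therefore mainly follows these genes and does not stand for the whole list. Fst, which encodes follistatin, Gja1, the gap junction gene, Hsd17b1, an estradiol-forming enzyme, and Inhbb, an activin subunit, fell by 1.85, 1.02, 1.36 and 1.49 on the log2 scale. The fifth that fell was Inha. Foxl2, the transcription factor of granulosa identity, was higher in every cKO library without passing, at 89.2, 77.5 and 86.9 FPKM in control and 140, 93.2 and 114 FPKM in cKO (adjusted p 0.128, limma). The same held for Kitl, the ligand of the oocyte receptor KIT, at 39.7, 33.2 and 46.1 FPKM in control and 79.8, 73.7 and 47.9 FPKM in cKO (adjusted p 0.0854, limma). Fshr, the receptor of follicle-stimulating hormone, had a log2 change of -0.66 (adjusted p 0.0700, limma), and Amh, Amhr2 and Cyp19a1 had log2 changes of -0.08, 0.14 and 0.12 with overlapping groups. The part of granulosa cell number in the values of Pparg and Esr2 was not tested.

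Ratios within a library stay the same when all its values are multiplied by a common factor, though quantile normalisation can change them. Esr2 over the inhibin gene Inha was 0.0300, 0.0360 and 0.0299 in control and 0.0315, 0.0320 and 0.0292 in cKO, so the groups overlapped. Pparg over Fst was 0.216, 0.218 and 0.252 in control and 0.327, 0.293 and 0.254 in cKO, higher in every cKO library. Pparg over Gja1 lay the other way, at 0.0345, 0.0351 and 0.0354 in control and 0.0243, 0.0225 and 0.0271 in cKO. Relative to Foxl2 both receptors were lower in cKO: Pparg over Foxl2 was 0.273 to 0.385 in control and 0.0687 to 0.0965 in cKO, and Esr2 over Foxl2 was 0.609 to 0.948 in control and 0.289 to 0.378 in cKO. Over 10 such ratios, all chosen after the values were seen, 9 had groups that did not overlap. Most of the 10 hold Pparg or Esr2, which passed the test, and others pair genes on opposite sides of 0. The choice therefore largely fixed this count, and no share over other gene pairs was computed. Each of the 9 had a two-sided exact permutation p of 0.1, the smallest that 3 libraries against 3 can give. Benjamini-Hochberg adjustment over the 10 gave 0.111, which does not correct for the choice of ratios. Esr2 over Inha had an exact permutation p of 0.8.

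The upstream sequences of Esr2 and Pparg, the members that fell, are shown, along with that of Nr5a2, the most abundant member. Each is the stretch of 250 bases before an annotated start, on the gene's own strand from 5′ to 3′, from RefSeq on GRCm38.p6, and 1 stretch that holds no annotated exon of the gene is printed for each. Capitals mark matches on either strand to the nuclear receptor half-site AGGTCA, the GC box GGGCGG, the E-box CACGTG or TATAAA.
Esr2, chr12:76177260-76177509, minus strand: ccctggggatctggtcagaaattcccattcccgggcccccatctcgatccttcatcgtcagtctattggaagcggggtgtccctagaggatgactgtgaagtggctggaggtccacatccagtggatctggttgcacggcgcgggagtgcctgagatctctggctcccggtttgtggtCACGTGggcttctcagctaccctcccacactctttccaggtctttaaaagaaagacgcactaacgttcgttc
Pparg, downstream start, chr6:115421816-115422065, plus strand: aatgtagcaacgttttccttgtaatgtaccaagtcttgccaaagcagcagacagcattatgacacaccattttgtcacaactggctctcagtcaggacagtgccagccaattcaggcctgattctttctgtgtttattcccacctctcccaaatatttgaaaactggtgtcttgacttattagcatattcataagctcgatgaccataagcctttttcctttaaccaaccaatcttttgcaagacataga
Nr5a2, chr1:136960449-136960698, minus strand: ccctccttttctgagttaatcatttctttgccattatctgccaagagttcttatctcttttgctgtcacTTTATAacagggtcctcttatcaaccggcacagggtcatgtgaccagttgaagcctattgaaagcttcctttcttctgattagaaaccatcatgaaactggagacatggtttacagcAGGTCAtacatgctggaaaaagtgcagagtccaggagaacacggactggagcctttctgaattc

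The Esr2 stretch held 1 E-box and no half-site, the downstream Pparg stretch held none of these letters, and the printed Nr5a2 stretch held 1 half-site and 1 TATAAA. The second Nr5a2 stretch, chr1:136953631-136953880, holds no exon of the gene either and had none of these motifs; it is not printed. The other 2 Pparg starts, not printed because they overlap exons, each had 1 half-site and at least 1 GC box. The stretch at chr6:115362099-115362348 also had 1 TATAAA. Promoters were found for 42 of the 46 members, 63 stretches in all. Stretches of the same gene can overlap, as for Rara and Nr1h3, and were counted separately. A half-site occurred in 17.5% of these stretches and in 14% of the 32851 promoters of all genes. The longer NR5A site CAAGGTCA occurred in none of the members' stretches and in 1.33% of all promoters. A GC box occurred in 44.4% and 32.7%, an E-box in 7.94% and 6.02%, and TATAAA in 12.7% and 12.4%. These are matches of letters and not binding data.

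Of the other steroid receptors among the members, Esr1, Nr3c1 and Nr3c2 did not pass the test, and Pgr was too low to be tested. Esr1, estrogen receptor alpha, known in theca and stroma, had means of 9.80 ± 0.722 (control) and 10.1 ± 0.695 FPKM (cKO, SD, n = 3), and a 95% interval of the log2 change from -0.18 to 0.25. Esr2 was therefore 7.11, 7.89 and 4.97 times Esr1 in the 3 controls and 3.77, 3.44 and 4.42 times Esr1 in the 3 cKO libraries. Nr3c1, the glucocorticoid receptor, read 8.85, 9.88 and 10.4 FPKM in control and 12.1, 12.9 and 10.4 FPKM in cKO. Control 3 and cKO 3 met, so the groups overlapped, at a log2 change of 0.25 (SE 0.11, adjusted p 0.195, limma). Nr3c2, the mineralocorticoid receptor, was low, at 1.10 ± 0.170 and 1.65 ± 0.391 FPKM. Pgr, the progesterone receptor that the luteinizing hormone surge induces in adult granulosa cells, lay under 0.5 FPKM, at 0.333 to 0.492 in control and 0.453 to 0.583 in cKO.

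Of the estrogen-related receptors, which bind no known natural ligand and act on mitochondrial genes, Esrra read 4.71 to 5.49 FPKM in control and 5.90 to 6.58 FPKM in cKO, without overlap, at an adjusted p of 0.234. Esrrb read 6.57 ± 1.32 and 6.93 ± 0.527 FPKM. Esrrg lay just under the threshold, at a mean of 0.487 FPKM. Its values were 0.581, 0.610 and 0.703 FPKM in control and 0.311, 0.337 and 0.384 FPKM in cKO, so every cKO library was lower, but the gene was not tested. Just inside the threshold were Rarb at 0.534 and Vdr at 0.607 FPKM, and the next below was Pgr at 0.454 FPKM.

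The NR5A pair, steroidogenic factor 1 and liver receptor homolog 1, pointed in opposite directions, and neither passed. Nr5a2 (ENSMUSG00000026398, chr1:136842571-136960448, minus strand, mm10), the granulosa member of the pair, read 112, 116 and 95.7 FPKM in control 1 to 3 and 88.0, 83.4 and 75.8 FPKM in cKO 1 to 3. The groups did not overlap. Its log2 change was -0.38 (SE 0.10), at an adjusted p of 0.0758 (limma). Nr5a2 passed in 3 of 17 alternatives: with libraries centred on the median, with array weights, and without control 3. Control 3 was the lowest control, so leaving it out widens the gap by itself. Nr5a1 (ENSMUSG00000026751, chr2:38692656-38714542, minus strand, mm10), known in theca, interstitial and granulosa cells, read 61.4, 63.1 and 60.2 FPKM in control and 86.2, 65.2 and 71.5 FPKM in cKO. Each cKO library was above each control, with cKO 1 the highest, at a log2 change of 0.26 (SE 0.11, adjusted p 0.196.)

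Because the 2 genes lie on opposite sides of 0, their ratio separates the groups further than either alone. Nr5a1 over Nr5a2 was 0.547, 0.546 and 0.629 in the 3 controls and 0.980, 0.782 and 0.944 in the 3 cKO libraries. Together they made up 25.5% to 26.2% of the family's summed FPKM in control and 23.9% to 25.3% in cKO. Theca markers were higher in several cKO libraries without passing the test in any of 7: their summed FPKM was 396, 208 and 151 in the 3 controls and 445, 549 and 263 in the 3 cKO libraries. Their part in the values of Nr5a1 was not tested.

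The atypical receptors Nr0b1 (DAX-1) and Nr0b2 (SHP), which lack a DNA-binding domain and inhibit other receptors including NR5A, did not pass. Nr0b2 read 1.82, 1.24 and 1.71 FPKM in control and 2.46, 2.05 and 2.64 FPKM in cKO. All cKO libraries were higher, with a log2 change of 0.39 (SE 0.14, adjusted p 0.142, limma). Nr0b1 read 5.55 ± 1.27 and 6.79 ± 1.29 FPKM (SD, n = 3).

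Of 10 tested target genes of the NR5A receptors 1 fell and none rose. Inha, the inhibin alpha subunit, fell from 2239, 2044 and 1767 FPKM to 1279, 1101 and 1416 FPKM, a log2 change of -0.67 at an adjusted p of 0.0387 (limma). The median log2 change of this list was 0.495. Cyp17a1, the androgen-forming enzyme of theca cells, was chosen after its values were seen as an example of spread: it read 145, 24.3 and 14.1 FPKM in control 1 to 3 and 113, 184 and 58.0 FPKM in cKO 1 to 3. With control 1 among the cKO values, the groups overlapped.

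The 3 PPARs differed in their values. Ppara, known for the oxidation of fatty acids, read 1.84, 0.991 and 1.17 FPKM in control 1 to 3 and 2.65, 2.80 and 1.62 FPKM in cKO 1 to 3. Control 1 was above cKO 3, so the groups overlapped, at a log2 change of 0.52 (SE 0.20, adjusted p 0.165, limma). Ppard, the widely expressed member, read 7.79 ± 1.15 and 8.20 ± 0.732 FPKM (SD, n = 3). Pparg over Ppara was 16.1, 30.1 and 20.2 in control and 3.62, 2.89 and 6.81 in cKO.

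Among 8 tested PPAR target genes 1 rose and 1 fell. Angptl4, a lipase inhibitor, read 49.3, 51.5 and 48.0 FPKM in control and 78.2, 78.5 and 73.6 FPKM in cKO, a rise of 0.62 on the log2 scale at an adjusted p of 0.0122 (limma). Cd36, the fatty acid carrier, fell from 12.9, 16.3 and 10.3 FPKM to 6.49, 5.87 and 6.37 FPKM. In both genes the groups stood apart in every library. The median log2 change of the list was 0.10.

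**Figure D3:**
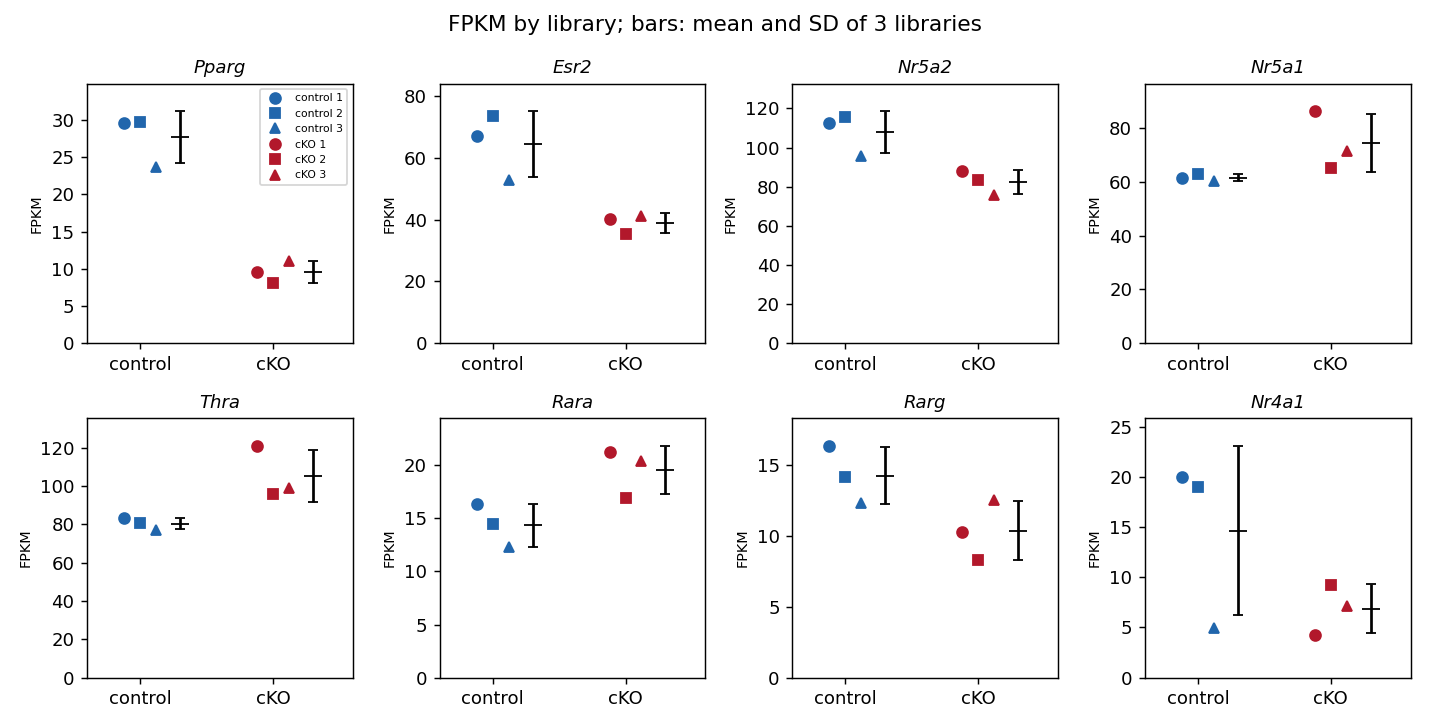
FPKM (y axis) of 8 nuclear receptor genes in each library, with the mean and SD of 3 libraries beside the points (blue control, red cKO; circle, square and triangle for libraries 1, 2 and 3). Pparg and Esr2 are lower in all cKO libraries, and Nr4a1 is high in control 1 and control 2 and low in control 3.

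The retinoic acid receptors Rara and Rarg also lay on opposite sides. Rara (chr11:98927818-98974942, plus strand, mm10) read 16.3, 14.4 and 12.3 FPKM in control 1 to 3 and 21.3, 17.0 and 20.4 FPKM in cKO 1 to 3. The groups did not overlap, although cKO 2 lay close to control 1. The log2 change was 0.42 (SE 0.13), at an adjusted p of 0.101 (limma). Rarg (chr15:102234938-102257517, minus strand, mm10) read 16.4, 14.2 and 12.3 FPKM in control and 10.3, 8.35 and 12.5 FPKM in cKO. Here cKO 3 lay just above control 3, at a log2 change of -0.43 (SE 0.15, adjusted p 0.146.)

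Both genes ran from high to low over control 1, 2 and 3 alike, so their ratio hardly varied among the controls. Rara over Rarg was 0.996, 1.02 and 0.995 in control and 2.07, 2.03 and 1.63 in cKO. The mean ratio was 1.00 ± 0.014 in control and 1.91 ± 0.245 in cKO (SD, n = 3). Rarb, itself a retinoic acid target, was low at 0.530 ± 0.226 and 0.538 ± 0.0581 FPKM. Its exons share 1793 bases with those of Top2b on the opposite strand, so some of these fragments may belong to Top2b.

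**Figure D4:**
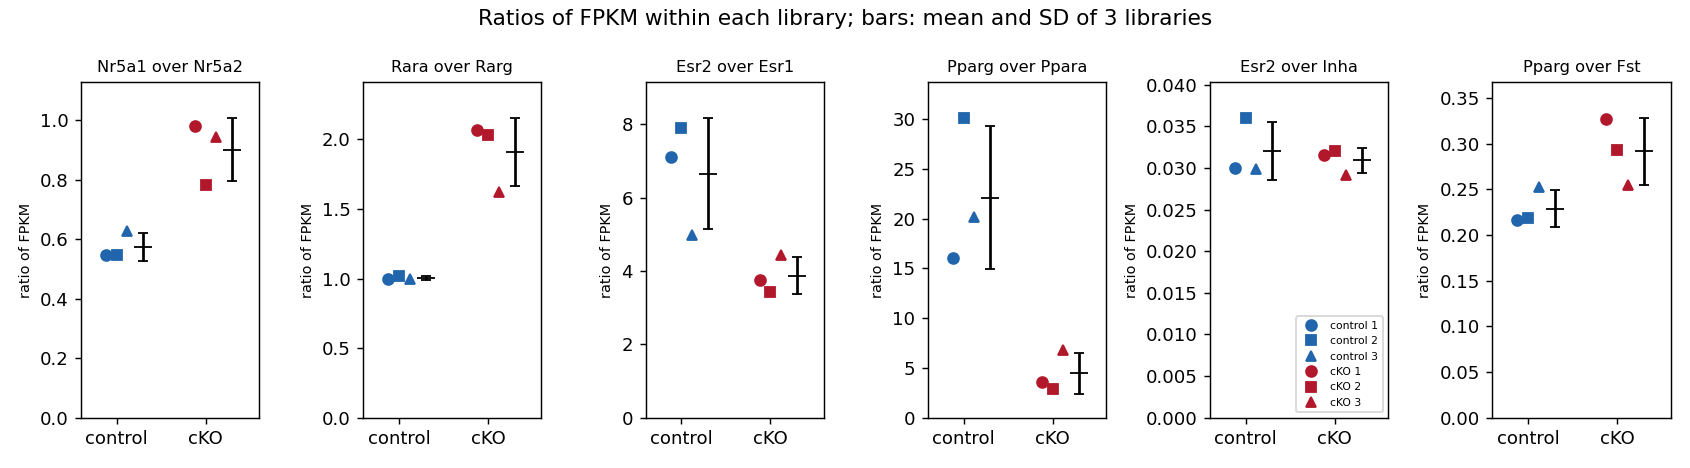
Ratios of FPKM between 2 genes within each library (y axis), with the mean and SD of 3 libraries beside the points (blue control, red cKO). The groups overlap for Esr2 over Inha, and the 3 control libraries lie within 0.995 to 1.02 for Rara over Rarg.

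Of 6 tested retinoic acid receptor targets 2 fell and none rose. Crabp2, which carries retinoic acid to the nucleus, read 26.6, 18.2 and 12.99 FPKM in control and 5.49, 4.08 and 6.07 FPKM in cKO, and it fell by 1.66 on the log2 scale at an adjusted p of 0.0209 (limma). Stra6, the retinol uptake receptor, fell from 20.7, 18.6 and 20.3 FPKM to 15.0, 12.04 and 14.9 FPKM. The other 4 had positive log2 changes that did not pass. The median log2 change of the list was 0.17.

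The RXRs, the shared partners with which many receptors form dimers, did not pass. Rxra read 17.3 ± 1.53 and 19.8 ± 2.78 FPKM. Rxrb read 34.1, 33.8 and 29.1 FPKM in control and 32.6, 26.7 and 33.6 FPKM in cKO, with a 95% interval of the log2 change from -0.32 to 0.19. Rxrg was barely detected, at 0.0628 to 0.360 FPKM in control and 0.0603 to 0.245 FPKM in cKO, and its highest value was in control 3.

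Thra, thyroid hormone receptor alpha, was the member with the highest cKO mean. Thra (ENSMUSG00000058756, chr11:98740638-98769006, plus strand, mm10) read 83.3, 80.5 and 77.2 FPKM in control 1 to 3 and 121, 95.9 and 99.0 FPKM in cKO 1 to 3. All cKO libraries were above all controls. The log2 change was 0.38 (SE 0.10), at an adjusted p of 0.0803 (limma), and it passed in 3 of 17 alternatives: after quantile normalisation, with libraries centred on reference genes, and with array weights. The Thra exons share 263 bases with those of Nr1d1 on the opposite strand, so without a known strand setting some fragments of 1 gene may be counted for the other. Thrb read 1.01 ± 0.0616 and 1.03 ± 0.0808 FPKM, a difference of means smaller than the SD within either group. Of 4 tested targets of the thyroid hormone and vitamin D receptors none passed; the highest were Me1, an NADPH-forming enzyme, at 74.7 ± 1.25 and 92.5 ± 12.03 FPKM, and Thrsp at 2.33 ± 0.878 and 1.76 ± 0.508 FPKM.

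cKO 1 had the highest value of all 6 libraries for Thra, Nr5a1, Rara, Rxra and Nr2f2, named after their values were seen. The same held for further members, such as Nr2c1, Nr3c2 and Nr0b1. Its mitochondrial share of summed FPKM was the lowest, at 7.31% beside 10.7% to 14.2% in the others. The median level of tested genes was highest in cKO 1, and stromal markers were highest there too. Their summed FPKM over 7 genes was 868, 886 and 974 in the 3 controls and 1560, 1138 and 1175 in the 3 cKO libraries. Of these 7, Tcf21 and Pdgfra passed, with log2 changes of 0.55 and 0.81. None of the 7 fell, and none was at 0. Without cKO 1 the log2 change was 0.28 for Thra and 0.15 for Nr5a1. The part of stromal cells, or of the make-up of cKO 1 as a library, in these values was not tested. Among the other marker lists, all 5 mast cell markers rose, and no tested marker of endothelium, smooth muscle, immune cells, surface epithelium, oviduct, adrenal cortex or blood passed.

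The LXRs sense oxysterols and act on cholesterol export. Nr1h2 read 38.6, 39.5 and 34.5 FPKM in control and 36.0, 31.7 and 38.7 FPKM in cKO, and the groups overlapped throughout, with a 95% interval of the log2 change from -0.31 to 0.15. Nr1h3 read 1.24 ± 0.273 and 1.57 ± 0.350 FPKM, and the bile acid receptor Nr1h4 read 1.19 ± 0.458 and 0.921 ± 0.0142 FPKM. Of 9 tested LXR targets none passed, with 8 positive log2 changes and a median of 0.18. The highest were Apoe, the lipid carrier, at 283 ± 9.71 and 322 ± 34.1 FPKM, and Fasn, a fatty acid synthase, at 38.6 ± 2.09 and 41.1 ± 5.77 FPKM.

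Vdr, the vitamin D receptor, read 0.333 to 0.536 FPKM in control and 0.618 to 1.11 FPKM in cKO, without overlap, at an adjusted p of 0.277 (limma). Nr1i2, a receptor of foreign chemicals in the liver, read 0.239 to 0.977 and 0.700 to 1.37 FPKM. Its relative Nr1i3, at most 0.115 FPKM, shares 3304 exon bases with Tomm40l on the opposite strand. Of the liver and gut receptors, Hnf4a was at most 0.0875 FPKM, and Hnf4g was listed at 0 in all libraries.

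REV-ERB and ROR receptors belong to the circadian clock. Nr1d1 read 12.8 ± 0.190 and 11.3 ± 1.32 FPKM (SD, n = 3), and Nr1d2 read 18.4 ± 1.64 and 17.6 ± 0.842 FPKM, at adjusted p-values of 0.339 and 0.724 (limma). Rora read 2.24 ± 0.277 and 2.08 ± 0.247 FPKM, and Rorb was at most 0.0509 FPKM. None of 14 tested clock genes passed, and their median log2 change was 0.11. The highest were Tef and Dbp, transcription factors of the clock output, at 28.01 ± 1.26 and 29.2 ± 0.242 FPKM and at 19.2 ± 3.18 and 19.0 ± 3.07 FPKM. The labels do not state the hour of collection.

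Among the COUP-TFs, orphan receptors of mesenchymal cells, Nr2f2 read 41.2, 44.0 and 38.8 FPKM in control and 57.3, 41.1 and 44.3 FPKM in cKO, with a high value in cKO 1 alone, at an adjusted p of 0.416 (limma). Nr2f6 read 23.3, 20.7 and 23.0 FPKM in control and 25.5, 24.1 and 22.4 FPKM in cKO, with overlap. Its exons share 1622 bases with Ocel1 on the opposite strand, and those of Nr2f2 share 643 with B130024G19Rik. Nr2f1 read 1.81 ± 0.310 and 2.17 ± 0.756 FPKM.

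The orphan receptor Nr2e1, best known from neural stem cells, read 3.46, 3.59 and 2.53 FPKM in control and 1.93, 2.03 and 2.75 FPKM in cKO. Control 3 lay below cKO 3, so the groups overlapped, at a log2 change of -0.37 (SE 0.15, adjusted p 0.189, limma). Nr2e3, the photoreceptor member, spread from 0.647 to 2.77 FPKM within the controls. Nr2c1 and Nr2c2 read 6.34 ± 0.0639 and 10.7 ± 0.451 FPKM in control and 7.32 ± 0.983 and 11.6 ± 0.676 FPKM in cKO. The Nr2c2 exons share 4590 bases with those of Mrps25 on the opposite strand, so some of its fragments may belong to that gene.

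Nr6a1, germ cell nuclear factor, is expressed in oocytes, the cells in which Cre acts, and is known to repress Gdf9 and Bmp15. It read 4.13, 3.23 and 3.21 FPKM in control and 4.37, 3.09 and 4.35 FPKM in cKO, with overlap and an adjusted p of 0.655 (limma). None of its 4 listed targets passed. The highest, Gdf9 and Bmp15, read 221 ± 21.2 and 267 ± 72.7 FPKM and 47.2 ± 16.0 and 31.4 ± 17.0 FPKM. Of 10 oocyte markers 4 rose and none fell, their summed FPKM being 1291 to 1440 in control and 1767 to 2739 in cKO.

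The NR4A receptors are immediate early genes, induced within minutes by hormones or stress. Nr4a1, named after its values were seen, read 20.004, 19.0 and 4.92 FPKM in control 1 to 3 and 4.28, 9.21 and 7.18 FPKM in cKO 1 to 3. Control 1 and control 2 were high, while control 3 lay within the range of cKO. The log2 change was -0.83 (SE 0.49), at an adjusted p of 0.341 (limma). Without control 3 the log2 change was -1.43 at an adjusted p of 0.0360 (limma). Leaving out the only control within the range of cKO sets the groups apart by itself, so this p-value is no evidence of a difference.

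Fos and Junb, named likewise after their values were seen, were also high in control 1 and control 2 and lower in control 3. Fos read 9.30, 9.22 and 2.63 FPKM in control 1 to 3 and 1.81 to 2.17 FPKM in cKO, so its control 3 still lay above every cKO library. Junb read 8.88, 10.03 and 3.41 FPKM in control and 3.30 to 3.62 FPKM in cKO, with control 3 within the range of cKO. None of 14 tested immediate early genes passed, and their median log2 change was -0.12. The 2 highest were Myc, at 42.2 ± 11.1 and 38.2 ± 1.04 FPKM, and Egr1, at 27.0 ± 9.66 and 18.6 ± 3.30 FPKM. Nr4a2 read 2.25 ± 0.161 and 2.03 ± 0.444 FPKM, and Nr4a3 read 0.103 to 0.625 and 0.187 to 0.984 FPKM. How long the tissue was handled is not stated in the labels, and its part in these values was not tested.

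Coregulators of the receptors were measured throughout. Of 25 coactivator and corepressor genes none passed, 19 had a positive log2 change, and the median was 0.08. An unadjusted p below 0.05 was reached by 5, of which 4 were higher in cKO. Of all tested genes 24.3% reached it, 14.5% higher and 9.8% lower, and 58.5% had a positive log2 change. The counts for the coregulators are therefore not read as a shift of this list. The highest were the arginine methyltransferase gene Prmt1, at 203 ± 22.5 and 197 ± 14.4 FPKM, and the corepressor gene Ncor1, at 60.6 ± 1.33 and 61.0 ± 8.33 FPKM. Of 7 chaperone genes that hold steroid receptors ready for ligand, Ptges3, the cochaperone p23, fell from 140, 143 and 139 FPKM to 109, 109 and 115 FPKM, a log2 change of -0.35 at an adjusted p of 0.0378 (limma). The others did not pass, and the list had a median log2 change of -0.26.

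Targets of the other receptors changed singly. Of 7 tested targets of the sex steroid receptors Igf1, the insulin-like growth factor of granulosa cells, fell, from 66.7, 70.3 and 42.1 FPKM to 23.3, 26.7 and 24.3 FPKM, a log2 change of -1.20 at an adjusted p of 0.0241 (limma). Of 7 tested targets of the estrogen-related receptors Cycs, cytochrome c, fell from 66.1, 66.3 and 62.0 FPKM to 42.5, 47.6 and 46.5 FPKM. Of 10 glucocorticoid receptor targets none passed, and the highest were Mt1, a metallothionein gene, at 125 ± 17.3 and 111 ± 17.8 FPKM, and Fkbp5 at 85.8 ± 13.5 and 69.5 ± 6.91 FPKM. The median log2 changes of these 3 lists were 0.14, -0.18 and 0.04.

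The calls of single members depended on which libraries and scaling were used. Over 17 alternatives Pparg passed in 13 and Esr2 in 10, and their log2 changes stayed between -1.65 and -1.34 and between -0.88 and -0.61. Nr5a2, Thra, Rara and Nr4a1 passed in 3, 3, 2 and 1 of them, and each kept its sign in all 17. For Nr4a1 it was the fit without control 3, the control within the range of cKO. No other member passed under any of the alternatives.

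**Figure D5:**
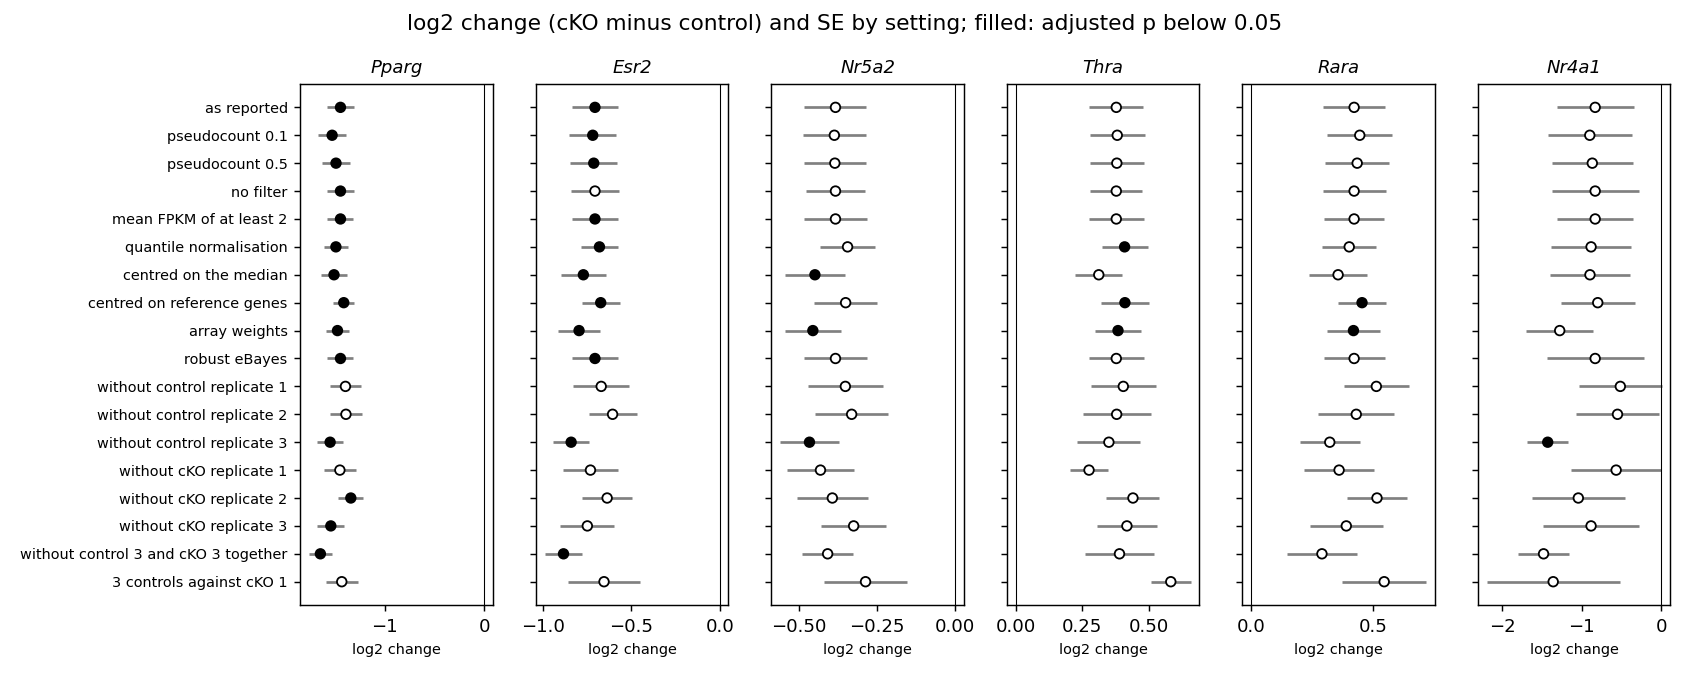
Log2 change (x axis, cKO minus control) with its standard error for 6 nuclear receptor genes under each setting (y axis; filled points have an adjusted p below 0.05). Pparg stays between -1.65 and -1.34 and Esr2 between -0.88 and -0.61, and leaving out libraries opens many of the points.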

How the data were processed

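RNA of 6 pooled ovary libraries, 3 per genotype label, was analysed from the deposited table of FPKM values, made by the authors. The submitters' processing notes list TopHat2 2.0, Cufflinks 2.0 and the build mm10. Annotation, strand setting and any scaling across libraries: not given in the sources used here. Library numbers follow the order of deposit.

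Genes with a mean of at least 0.5 FPKM were tested with limma 3.58.1 in R 4.3.3 (lmFit, eBayes with trend) on log2(FPKM + 1), with Benjamini-Hochberg adjustment over all 14934 genes and a threshold of 0.05. Fold changes on this scale understate the change of low genes. "Rose" and "fell" are used of genes that passed. The test was also run on simulated data with independent noise of the fitted spread and no differences between libraries of a group. That run cannot show how the test behaves on these libraries.

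Depth was estimated from FPKM values below 0.15 in genes with 1 transcript of at least 1500 exon bases, each read as 1 fragment after 150 bases were taken off the length. Positions and exon overlaps came from GENCODE M21 and promoters from RefSeq (GRCm38.p6), both on the assembly of mm10. Of the listed genes, 4 were not found by symbol. The floxed gene and 1 PPAR target are not reported here, and the latter was left out of its list.

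The members and lists were chosen with earlier results of these data known. Values in every library are given for members that passed, had an unadjusted p below 0.05 or a mean of at least 20 FPKM. From each list up to 4 called genes with the smallest p are named, or the 2 highest where none was called. Some cell type lists are given by their sums. Alternatives were 2 other pseudocounts, 2 other filters, 3 scalings, array weights, robust eBayes and 8 sets of left-out libraries.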

Additional observations from a re-analysis of the deposited data

How the results depend on the processing

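No paired analysis was possible because samples carry no replicate number in the labels. The fits hold 3 libraries per group, or fewer where libraries were left out, and a lone cKO library was assumed to vary as the controls did. Low members rest on few fragments.

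Of all genes, 646 were called, 334 higher and 312 lower. Without a filter 28 were called, 4 higher and 24 lower; with array weights 1784, 1041 higher and 743 lower; with the 3 controls against cKO 1, 23, of which 22 were higher and 1 lower. Centring on the median gave 577 lower genes, and leaving out control 3 and cKO 3 together gave 204 higher ones. With 1 library left out, called genes numbered 2 to 660, higher ones 0 to 307 and lower ones 2 to 353. Of the nuclear receptor genes 2 were called, against 1 without a filter, 4 with libraries centred on reference genes, 5 with array weights, 0 with the 3 controls against cKO 1, and 0 to 4 with 1 library left out.

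Of the 38 members, 27 kept their sign under every alternative run on them. The 11 that did not had log2 changes of at most 0.15 in size as reported, and every fit with a changed sign had an adjusted p of at least 0.771. Quantile normalisation gave -0.071 for Thrb, -0.056 for Rarb, -0.0081 for Ppard, -0.064 for Nr2e3, -0.024 for Esr1 and -0.0082 for Esrrb. Centring on the median gave -0.047 for Thrb, -0.049 for Rarb, -0.018 for Nr2e3 and -0.027 for Esr1. Array weights gave 0.0098 for Rora and -0.038 for Esrrb. Without control 3 and cKO 3 the values were 0.046 for Nr1d2, -0.070 for Esrrb and 0.014 for Nr4a2, and the 3 controls against cKO 1 gave -0.024 for Thrb and 0.014 for Rxrb. With 1 library left out the ranges were -0.014 to 0.040 for Thrb, -0.075 to 0.131 for Rarb, -0.030 to 0.160 for Ppard, -0.100 to 0.0091 for Nr1d2, -0.135 to 0.036 for Rxrb, -0.224 to 0.391 for Nr2e3, -0.035 to 0.288 for Nr2f1, -0.00041 to 0.093 for Esr1 and -0.018 to 0.215 for Esrrb. The cause of these shifts was not tested.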
